A study of Mus musculus with 16 samples.

Results

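The Klf and Egr genes followed here encode zinc finger transcription factors, namely Klf2, Klf4, Klf5, Klf6, Klf9, Klf10, Egr1, Egr2 and Egr3. These 9 of the 21671 genes in the deposited table were taken by symbol. They were selected on measured values, namely the RPKM differences between cells with and without the ROCK inhibitor Y27632 (Y27), in which Klf4 had one of the largest responses, and the question put to them was which of them shared its pattern across the 8 groups. All 9 were among the 13028 genes that reached 1 RPKM (reads per kilobase of gene, scaled to the reads in genes of each library) in at least 2 libraries, so no member was lost to the filter on low values. As the choice used the Y27 response, the values of these genes in the comparisons of cells with and without Y27 are given as a description, with no test.

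Klf proteins bind GC-rich and CACCC-type promoter elements through a set of zinc fingers at their C terminus, and differ in the co-regulators that their other end recruits. Klf2 and Klf4 are best known as factors of quiescent cells, Klf4 also as one of the factors that reprogram fibroblasts to pluripotency, whereas Klf5 is mostly described in proliferating cells. The Egr genes are classical immediate early genes. In fibroblasts growth factors switch them on through the ERK cascade and the factors SRF and Elk1, and SRF also responds to actin polymerization, which ROCK promotes.

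RNA was sequenced from mouse embryonic fibroblasts, all of which express MycER, that is Myc joined to the ligand-binding domain of the estrogen receptor and activated by 4-hydroxytamoxifen (OHT, 400 nM). One population also overexpresses YAP2S, an activated mutant of YAP, the co-activator of TEAD factors, and is called YAP2S below, while the population with MycER alone is called MycER. Y27 was given at 50 µM. The 8 groups, of 2 libraries each, are YAP2S OHT Y27, YAP2S OHT, YAP2S Y27, YAP2S, MycER OHT Y27, MycER OHT, MycER Y27 and MycER. Nothing in the labels says that the 2 libraries of a group came from separate cultures, so p-values measure the spread between these libraries, which may be technical. The study worked with serum-starved cells kept in low serum, whereas the labels give only growth in serum, and the promoter that drives YAP2S is not given in the sources used here.

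Several facts of the whole series bear on every value below. The libraries held from 1763224 to 15707305 reads in genes, worked out from the steps of the low values, and the shallowest were MycER replicate 1 (1763224 reads) and MycER OHT Y27 (3628121 and 2619453 reads). The libraries labelled OHT went against their labels in the markers of the populations. Bex1 averaged 18.1 RPKM in YAP2S Y27 and 16 RPKM in YAP2S, against 0.17 RPKM in MycER Y27 and 0.245 RPKM in MycER. It averaged 0.345 RPKM in the libraries labelled YAP2S OHT Y27 and 0.74 RPKM in those labelled YAP2S OHT, against 7.56 RPKM in MycER OHT Y27 and 19.4 RPKM in MycER OHT. Ctgf, a YAP target, was at 12.7 ± 1.92 RPKM in MycER Y27 and 155 ± 22.3 RPKM in MycER (SD, n = 2 each), but at 150 ± 7.01 RPKM in the libraries labelled MycER OHT Y27 and 63.9 ± 4.47 RPKM in those labelled MycER OHT. Labels were kept as they stand, every direction in OHT-treated cells is that of the libraries so labelled, and the averaged OHT comparison (8 libraries against 8) does not depend on which population or Y27 label an OHT library carries. Yap1 itself had a median of 23.1 RPKM in the 8 YAP2S libraries (20.8 to 30.6) and 23.9 RPKM in the 8 MycER libraries (17.0 to 27.9), and whether reads of the transgene are counted in that row is not given in the sources used here. Of the fibroblast markers, Col1a1, Col1a2, Col3a1, Pdgfrb and Vim were high in every library (at least 27.5 RPKM). The others, Pdgfra, Thy1 and Dcn, were at most 0.385, 0.367 and 1.22 RPKM. Macrophage, endothelial, muscle and most epithelial markers were at or near 0, except Krt19 (34.4 to 102 RPKM) and Cd68 (3.81 to 10.7 RPKM), and their part in the results was not tested.

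**Figure D1:**
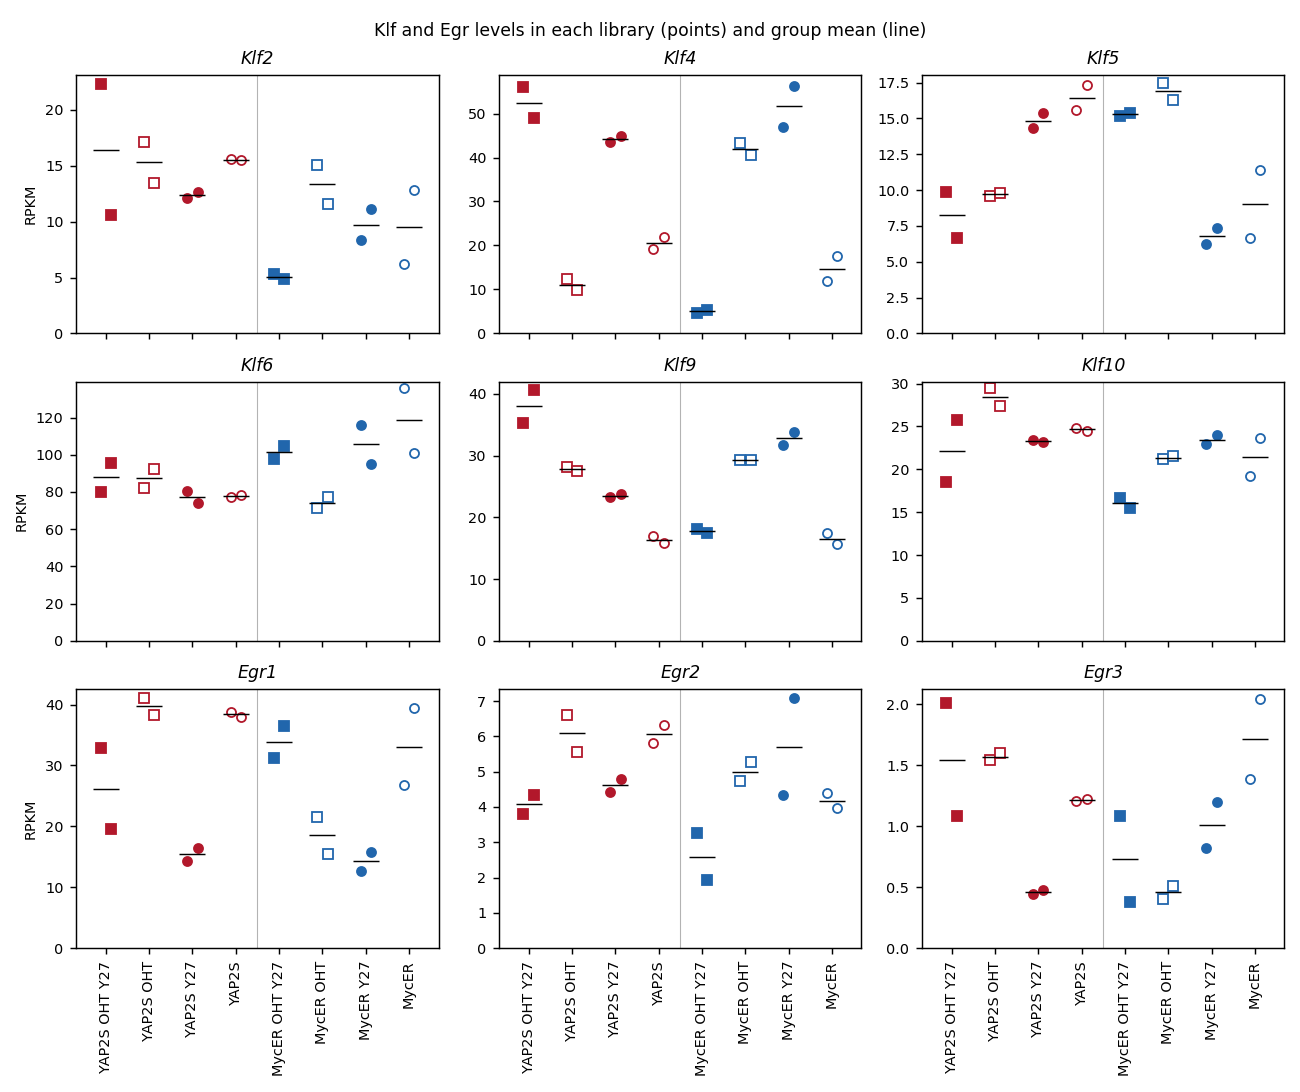
RPKM of the 9 genes (vertical axes, linear and starting at 0) in each of the 16 libraries, with the 8 groups along the horizontal axis. Each point is 1 library and each short line is the mean of 2; red is YAP2S, blue MycER, squares OHT, and filled symbols Y27. Klf4 spans from 4.71 to 56.3 RPKM, while Klf10 stays between 15.5 and 29.5 RPKM.

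Klf4, the member that prompted the choice, was high in every Y27 group but one. It had 56.0 and 48.9 RPKM in YAP2S OHT Y27, against 12.3 and 9.86 RPKM in YAP2S OHT. In YAP2S Y27 it had 43.5 and 45.0 RPKM, against 19.1 and 21.9 RPKM in YAP2S, and in MycER Y27 it had 47.0 and 56.3 RPKM, against 11.9 and 17.5 RPKM in MycER. The exception was the pair labelled MycER with OHT, where Klf4 had 4.71 and 5.39 RPKM in MycER OHT Y27, against 43.3 and 40.6 RPKM in MycER OHT. In none of the 4 pairs did the libraries with and without Y27 overlap. The differences were 2.15 ± 0.17, 1.08 ± 0.17, -2.83 ± 0.17 and 1.76 ± 0.17 (log2 difference ± SE, in the order of the pairs YAP2S OHT, YAP2S, MycER OHT and MycER), on the scale of log2(RPKM + 1), which understates changes of low genes.

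Ordered by level, Klf4 had 52.5 ± 5.03 RPKM in YAP2S OHT Y27, 51.6 ± 6.63 in MycER Y27, 44.3 ± 1.03 in YAP2S Y27, 42.0 ± 1.88 in MycER OHT, 20.5 ± 1.97 in YAP2S, 14.7 ± 3.95 in MycER, 11.1 ± 1.74 in YAP2S OHT and 5.05 ± 0.484 in MycER OHT Y27 (mean ± SD, n = 2 each). The libraries of the first 2 groups of this order overlapped, as did those of MycER and YAP2S OHT. The gap between the upper 4 groups and the lower 4 was wide, with no library between 21.9 and 40.6 RPKM, and the group means spanned 10.4-fold. Among the 13028 genes tested, the Klf4 difference ranked 15th from the top in the YAP2S OHT pair, 41st in the YAP2S pair and 77th in the MycER pair, and 8th from the bottom in the MycER OHT pair. Klf4 rested on 43 to 2071 reads a library, the fewest in MycER OHT Y27 and MycER replicate 1.

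The DNA in front of Klf4 and Klf9 is shown because these 2 members had the same order of libraries in all 4 Y27 pairs (below). Promoter windows came from RefSeq (GRCm38.p6) and matched 5 of the 9 members, Klf2, Klf4, Klf6, Klf9 and Egr2. The sequences are the 250 bases before the annotated start, on the strand of the gene, from chr4:55532476-55532725 (minus strand) and chr19:23140976-23141225 (plus strand). Capitals mark the E-box CACGTG, to which Myc and Max bind, and the GC box GGGCGG on either strand, to which Sp and Klf factors bind.
Klf4: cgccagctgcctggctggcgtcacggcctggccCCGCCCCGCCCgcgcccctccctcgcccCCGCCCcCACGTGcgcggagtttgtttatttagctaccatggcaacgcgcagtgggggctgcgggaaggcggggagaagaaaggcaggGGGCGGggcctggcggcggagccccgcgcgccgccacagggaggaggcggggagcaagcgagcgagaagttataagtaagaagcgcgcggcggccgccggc
Klf9: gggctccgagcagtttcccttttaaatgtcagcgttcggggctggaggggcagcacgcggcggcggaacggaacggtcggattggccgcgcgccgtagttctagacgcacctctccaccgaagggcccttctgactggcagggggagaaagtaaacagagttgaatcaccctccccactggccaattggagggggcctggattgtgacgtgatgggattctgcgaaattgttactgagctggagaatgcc
The Klf4 window held 1 E-box, 182 to 177 bases before the start, and 4 GC boxes, of which 2 share a base. It also held 2 matches to the Egr motif GCGNGGGCG, both overlapping GC boxes. Of all 32851 windows of this length, 6.02% hold the E-box, 32.7% the GC box and 4.7% the Egr motif on either strand. The Klf9 window held none of the 7 motifs searched, which were these 3, the CArG box bound by SRF, the TEAD motif GGAATG, the MEF2 motif and the CRE TGACGTCA. The CArG box was present in 4 of the 5 Egr2 windows, which overlap in part and hold 2 distinct boxes, and 1.47% of all windows hold it. A match of letters is a description and shows no binding.

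Klf9, a glucocorticoid-inducible member of the family, had the order of Klf4 at a smaller amplitude. It had 35.3 and 40.7 RPKM in YAP2S OHT Y27, against 28.1 and 27.5 RPKM in YAP2S OHT. The values were 23.3 and 23.7 RPKM in YAP2S Y27, against 16.9 and 15.9 RPKM in YAP2S, and 31.8 and 33.8 RPKM in MycER Y27, against 17.4 and 15.7 RPKM in MycER. As with Klf4, the order turned round in the pair labelled MycER with OHT, with 18.1 and 17.4 RPKM in MycER OHT Y27, against 29.3 and 29.3 RPKM in MycER OHT. The log2 differences with Y27 were 0.43 ± 0.10, 0.49 ± 0.10, 0.95 ± 0.10 and -0.69 ± 0.10 (± SE) for these pairs in the order given here. Both libraries with Y27 lay outside the range of those without it in each pair.

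Egr1, the immediate early gene whose product binds GC-rich sites, had the opposite order to Klf4. It had 32.8 and 19.6 RPKM in YAP2S OHT Y27, against 41.1 and 38.3 RPKM in YAP2S OHT. In YAP2S Y27 it had 14.3 and 16.5 RPKM, against 38.8 and 38.0 RPKM in YAP2S, and in MycER Y27 it had 12.7 and 15.8 RPKM, against 26.8 and 39.4 RPKM in MycER. In the pair labelled MycER with OHT it was the libraries with Y27 that were high, at 31.2 and 36.4 RPKM in MycER OHT Y27, against 21.6 and 15.4 RPKM in MycER OHT. Differences in log2 were -0.62 ± 0.24, -1.27 ± 0.24, -1.14 ± 0.24 and 0.85 ± 0.24 (± SE) in this order of pairs. The 2 libraries of YAP2S OHT Y27 differed most, and the fold between them was larger than in any other Egr1 group.

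Over all genes tested, 10.6% (1376 genes) had the library order of Klf4 in all 4 Y27 pairs, with no overlap in any, and 3.16% (412 genes) had the reverse order. Besides Klf4 itself, Klf9 was the only member with the Klf4 order and Egr1 the only one with the reverse order. The other 6 members had neither. As the members were chosen with this contrast in view, these counts are a description and nothing is read from them.

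**Figure D2:**
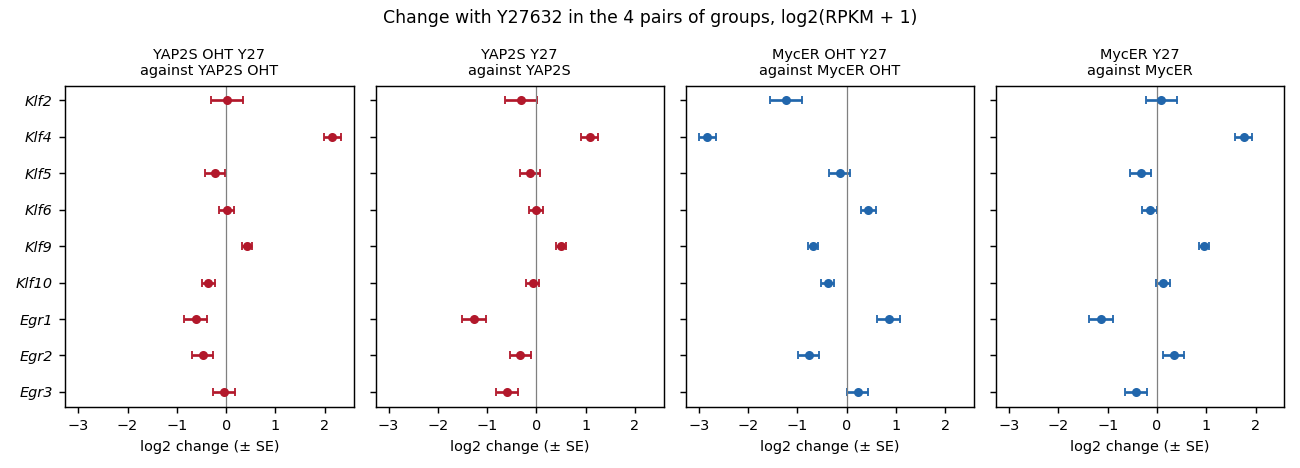
Log2 difference of RPKM + 1 between cells with and without Y27 (horizontal axes, points, with bars of ± 1 SE from the spread pooled over all 16 libraries) for the 9 genes (vertical axis) in the 4 pairs of groups. Klf4 lies at 2.15, 1.08, -2.83 and 1.76 from left to right, with Klf9 on the same side of 0 and Egr1 on the opposite side in every pair.

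The other 2 Egr genes were far less abundant and did not share the Egr1 pattern. Egr3, a close relative of Egr2, averaged 1.09 RPKM over all libraries and rested on as few as 4 reads. It had 0.442 and 0.474 RPKM in YAP2S Y27, against 1.21 and 1.22 RPKM in YAP2S, and 0.818 and 1.20 RPKM in MycER Y27, against 1.39 and 2.04 RPKM in MycER. Those 2 pairs were ordered as for Egr1, with log2 differences of -0.60 ± 0.22 and -0.43 ± 0.22 (± SE), but in the 2 pairs with OHT the Egr3 libraries overlapped. Egr2, known as a regulator of myelination in Schwann cells, averaged 4.79 RPKM. It had 4.07 ± 0.368 RPKM in YAP2S OHT Y27 and 6.09 ± 0.748 RPKM in YAP2S OHT, and 4.61 ± 0.256 RPKM in YAP2S Y27 and 6.07 ± 0.37 RPKM in YAP2S. In MycER cells it had 2.59 ± 0.935 RPKM in MycER OHT Y27 and 5.01 ± 0.375 RPKM in MycER OHT, while MycER Y27 (5.71 ± 1.93 RPKM) and MycER (4.18 ± 0.312 RPKM) overlapped.

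For Klf2, Klf5, Klf6 and Klf10 the log2 differences with Y27 lay between -0.36 and 0.13 outside the MycER OHT pair. Klf2, an endothelial and lymphocyte quiescence factor, had 16.5 ± 8.26 RPKM in YAP2S OHT Y27 and 15.3 ± 2.58 RPKM in YAP2S OHT, and 12.4 ± 0.469 RPKM in YAP2S Y27 and 15.6 ± 0.0832 RPKM in YAP2S. In the MycER libraries it had 5.07 ± 0.337 RPKM in MycER OHT Y27 and 13.3 ± 2.46 RPKM in MycER OHT, and the libraries of MycER Y27 (9.69 ± 1.94 RPKM) and MycER (9.50 ± 4.61 RPKM) overlapped. Its 2 libraries of YAP2S OHT Y27 stood at 22.3 and 10.6 RPKM, the widest spread of a group for this gene in RPKM. Klf10, an early gene of TGF-beta signalling, had group means from 16 ± 0.72 RPKM in MycER OHT Y27 to 28.4 ± 1.51 RPKM in YAP2S OHT, a span of 1.77-fold.

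Klf6, the most abundant member and a factor described in wound repair, ranged from 71.3 to 136 RPKM. Its highest value, 136 RPKM, came from the shallowest library (MycER replicate 1) and its lowest, 71.3 RPKM, from the deepest (MycER OHT replicate 1). Across the 16 libraries its log2 RPKM had a Pearson r of -0.87 with log2 depth, given as a description, since depth and group are not independent here. No gene over 1000 bases passed 1.87 reads per base in any library, and Klf6 held 1.14 reads per base in YAP2S replicate 1 and 0.239 in MycER replicate 1. A correction that assumes 1 read kept per position and strand raised all its group means but left r at -0.87. Depth and group cannot be told apart in the Klf6 differences. Klf2 had the strongest relation of the other sign, with r = 0.82 (0.71 after correction). Klf10 had r = 0.67 (0.26 after correction), Egr2 0.64 (0.37) and Klf4 0.61 (0.55). For these genes, too, depth cannot be told apart from group.

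**Figure D3:**
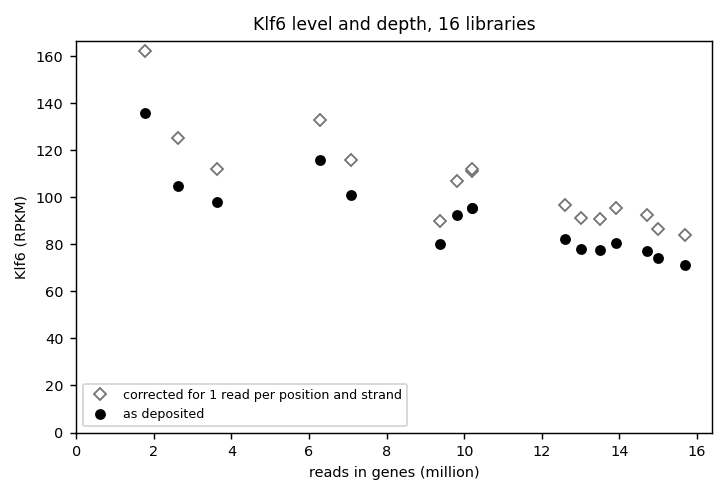
Klf6 in RPKM (vertical axis, from 0) against the reads in genes (horizontal axis) for the 16 libraries, with filled circles for the values as deposited and open diamonds for values corrected for counting 1 read per position and strand. The shallowest library, at 1763224 reads, holds the highest deposited value of 136 RPKM, and the deepest, at 15707305 reads, the lowest of 71.3 RPKM.

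Over all genes tested, 17.9% passed an adjusted p of 0.05 (limma, Benjamini-Hochberg) in MycER Y27 against MycER, 0.668% in YAP2S Y27 against YAP2S, 46.9% in MycER OHT Y27 against MycER OHT and 11.4% in YAP2S OHT Y27 against YAP2S OHT. These shares are the background for the gene lists described further on. The median difference over the 9 members was 0.09, -0.13, -0.39 and -0.04, and over all genes 0.13, 0.00, -0.29 and -0.02, in the same order.

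The Y27 difference of Klf4 was smaller in YAP2S than in MycER cells without OHT, by -0.68 ± 0.24 on the log2 scale (YAP2S minus MycER, ± SE). For Klf9 that value was -0.45 ± 0.13 and for Egr1 -0.13 ± 0.33. These are descriptions too, since they contain the contrast of the choice. The Klf4 value was -0.42 without MycER replicate 1, the shallowest library, -0.94 without MycER replicate 2, and -0.25 after quantile normalization.

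The choice of genes did not use the OHT comparison averaged over all groups. With the 8 OHT libraries set against the 8 without it, Klf4 fell by 0.56 ± 0.08 on the log2 scale (SE, adjusted p = 0.000431, limma) and Klf9 rose by 0.33 ± 0.05 (adjusted p = 0.000308, limma). These 2 of 9 members passed the threshold, beside 32.3% of all genes, and the median over the 9 was -0.03, against -0.04 over all genes. Both values are averages of differences of both signs. For Klf9 these were 0.79 in MycER, 0.73 in YAP2S, 0.67 in YAP2S Y27 and -0.85 in MycER Y27. An alternative chosen after the data were seen left out the 4 libraries labelled MycER with OHT. The Klf4 value was then -0.30 with an adjusted p of 0.124 (limma), and the Klf9 value 0.70 with an adjusted p of 0.000201 (limma). The other 7 members did not pass.

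Within single pairs of labels the OHT differences of these genes had no common direction. Single pairs, here and between the populations below, share libraries with the Y27 comparisons that chose Klf4. Their p-values for Klf4 are therefore not independent of the choice. In MycER OHT against MycER, 6 of 9 members passed, 3 higher and 3 lower, beside 44.9% of all genes. The median difference over all genes was 0.22 there. Klf4 rose by 1.47 ± 0.17 (adjusted p = 0.000126), Klf5 by 0.88 ± 0.21 (adjusted p = 0.00619) and Klf9 by 0.79 ± 0.10 (adjusted p = 0.000172, limma throughout). Klf6 fell by 0.65 ± 0.15, Egr1 by 0.80 ± 0.24 and Egr3 by 0.89 ± 0.22 (adjusted p = 0.0059, 0.0165 and 0.0075, limma). The Klf6 call ended under quantile normalization (0.06) and cyclic loess (0.02), where its sign also turned. Without MycER replicate 1 the Klf5 difference was 0.53 with an adjusted p of 0.06 (limma). The Egr1 call ended without MycER OHT replicate 2 (-0.57, adjusted p = 0.136) or MycER replicate 2 (-0.53, adjusted p = 0.105), and the Klf6 and Egr3 calls ended without MycER OHT replicate 1 (adjusted p = 0.0517 and 0.0536, limma). In YAP2S OHT against YAP2S, 3 of 9 members passed, beside 13.8% of all genes. There Klf4 fell by 0.83 ± 0.17 (adjusted p = 0.00697), Klf5 fell by 0.70 ± 0.21 (adjusted p = 0.0449) and Klf9 rose by 0.73 ± 0.10 (adjusted p = 0.000516, limma). The Klf4 call ended without YAP2S OHT replicate 2 (-0.69, adjusted p = 0.0965) or YAP2S replicate 2 (-0.74, adjusted p = 0.0854, limma), and the Klf5 call ended without any 1 of the 4 libraries.

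Under Y27 the same question gave 6 of 9 members in MycER OHT Y27 against MycER Y27, 2 higher and 4 lower, beside 50.1% of all genes. The median difference over all genes was -0.16 there. Klf4 fell by 3.12 ± 0.17 (adjusted p = 1.8e-07, limma), to 5.05 ± 0.484 RPKM in MycER OHT Y27, against 51.6 ± 6.63 RPKM in MycER Y27. High Klf4 values with Y27 were part of the choice, so this p-value is not independent of it. Klf9 fell by 0.85 ± 0.10, Klf10 by 0.52 ± 0.14 and Egr2 by 0.90 ± 0.21 (adjusted p = 2.28e-05, 0.00836 and 0.00452, limma), while Klf5 rose by 1.06 ± 0.21 and Egr1 by 1.19 ± 0.24 (adjusted p = 0.00133 and 0.00137, limma). The Klf10 and Egr2 calls ended without MycER OHT Y27 replicate 2 (-0.48 and -0.63, adjusted p = 0.0544 and 0.0542, limma) or MycER Y27 replicate 2 (-0.49 and -0.60, adjusted p = 0.0516 and 0.0589, limma). The Klf10 call also ended under quantile normalization (-0.25) and voom on duplicate-corrected reads (-0.32).

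In YAP2S OHT Y27 against YAP2S Y27, 3 of 9 passed, beside 15.0% of all genes. Klf9 rose by 0.67 ± 0.10 (adjusted p = 0.000586), Egr3 rose by 0.78 ± 0.22 (adjusted p = 0.0339) and Klf5 fell by 0.80 ± 0.21 (adjusted p = 0.0234, limma). Klf4, at 52.5 ± 5.03 RPKM in YAP2S OHT Y27 and 44.3 ± 1.03 RPKM in YAP2S Y27, did not pass. The call of Egr3 ended without YAP2S OHT Y27 replicate 1 (0.51, adjusted p = 0.215, limma) or either YAP2S Y27 library, and that of Klf5 without YAP2S OHT Y27 replicate 2 (-0.55, adjusted p = 0.0922, limma) or either YAP2S Y27 library.

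Klf5, a factor of proliferating epithelial and smooth muscle cells, separated the 2 populations without OHT. It had 14.3 and 15.4 RPKM in YAP2S Y27, against 6.22 and 7.37 RPKM in MycER Y27, and 15.6 and 17.3 RPKM in YAP2S, against 6.65 and 11.4 RPKM in MycER. It was higher by 1.03 ± 0.21 with Y27 (adjusted p = 0.00635, limma) and by 0.84 ± 0.21 without it (adjusted p = 0.0133, limma). The median difference over all genes was 0.06 with Y27 and 0.24 without it. With OHT the direction turned round, as it did for Bex1: Klf5 had 9.86 and 6.63 RPKM in YAP2S OHT Y27, against 15.2 and 15.4 RPKM in MycER OHT Y27, and 9.61 and 9.81 RPKM in YAP2S OHT, against 17.5 and 16.3 RPKM in MycER OHT. These differences were -0.84 ± 0.21 (adjusted p = 0.00681, limma) and -0.74 ± 0.21 (adjusted p = 0.0413, limma). None of the 4 pairs overlapped. The difference with Y27 lost its call without YAP2S Y27 replicate 2 (0.98, adjusted p = 0.0672, limma) or MycER Y27 replicate 1 (0.92, adjusted p = 0.0777, limma). The untreated difference lost it without either YAP2S library, was 0.49 with an adjusted p of 0.127 (limma) without MycER replicate 1, and did not pass under quantile normalization, cyclic loess or the correction for duplicate reads.

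In YAP2S against MycER 3 of 9 members passed, beside 33.3% of all genes, Klf4, Klf5 and Klf6. The median difference over all genes was 0.24 there, and less this median the Klf4 difference was 0.23. Klf4 was higher by 0.47 ± 0.17 (adjusted p = 0.0476, limma), a call that ended in most alternatives and was 0.21 with an adjusted p of 0.43 (limma) without MycER replicate 1. Klf6 was lower by -0.59 ± 0.15 (adjusted p = 0.0155, limma), with the sign turned under quantile normalization (0.09) and cyclic loess (0.05). With Y27, in YAP2S Y27 against MycER Y27, 2 of 9 passed, beside 16% of all genes, namely Klf5 and Klf9. Klf9 was lower by -0.46 ± 0.10 (adjusted p = 0.00658, limma), with 23.5 ± 0.254 RPKM in YAP2S Y27 and 32.8 ± 1.44 RPKM in MycER Y27. That call ended without YAP2S Y27 replicate 1 or replicate 2 (adjusted p = 0.0563 and 0.0584, limma).

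**Figure D4:**
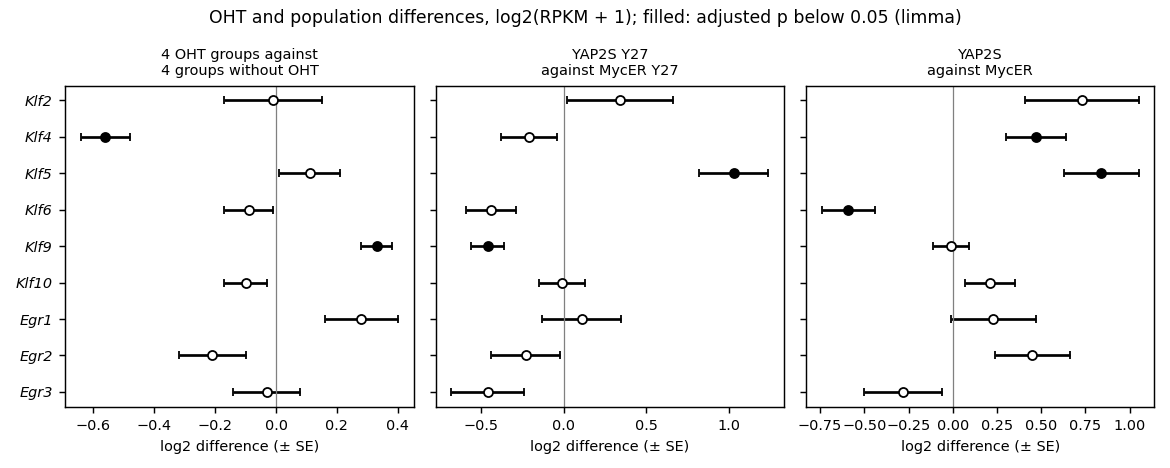
Log2 difference of RPKM + 1 (horizontal axes, each with its own scale, bars of ± 1 SE) for the 9 genes (vertical axis) in 3 comparisons, with filled points for an adjusted p below 0.05 in limma. Klf4 lies at -0.56 and Klf9 at 0.33 for the 8 OHT libraries against the 8 without, and Klf5 at 1.03 and 0.84 in YAP2S against MycER cells with and without Y27.

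Among the libraries labelled OHT, 4 of 9 members passed in YAP2S OHT against MycER OHT, beside 11.1% of all genes. Egr1 was higher by 1.08 ± 0.24, with 41.1 and 38.3 RPKM in YAP2S OHT, against 21.6 and 15.4 RPKM in MycER OHT (adjusted p = 0.0133, limma). Egr3 was higher by 0.82 ± 0.22 (adjusted p = 0.0343, limma), while Klf4 was lower by -1.84 ± 0.17 (adjusted p = 5.81e-05, limma), as was Klf5. Left without any 1 of the 4 libraries, the Egr3 and Klf5 calls ended. The Egr1 call ended without MycER OHT replicate 2 or either YAP2S OHT library. In YAP2S OHT Y27 against MycER OHT Y27, 5 of 9 passed, beside 47.0% of all genes. The median difference over all genes was 0.20 there, and less this median the Klf10 difference was 0.23. Klf4 was higher by 3.14 ± 0.17 (adjusted p = 3.18e-07, limma), Klf9 by 1.05 ± 0.10 (adjusted p = 7.98e-06, limma) and Klf2 by 1.44 ± 0.32 (adjusted p = 0.00351, limma), and Klf10 also passed (0.43 ± 0.14, adjusted p = 0.0246, limma), while Klf5 was lower. The Klf10 call ended under quantile normalization (0.11), cyclic loess (0.14), both voom fits (0.45 and 0.21 on recovered and duplicate-corrected reads) and with only the libraries of the comparison. It also ended without YAP2S OHT Y27 replicate 2 (0.20, adjusted p = 0.174, limma) or either MycER OHT Y27 library. The direction of these differences depends on labels that Bex1 goes against.

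The likeness of each gene to Klf4 was measured as the Pearson r of log2(RPKM + 1) over the 8 group means. Among the members r was 0.67 for Klf9, 0.56 for Klf2, 0.44 for Egr2, 0.35 for Klf10, -0.20 for Egr3, -0.24 for Klf5, -0.37 for Klf6 and -0.77 for Egr1. These correlations are descriptions over few points that share libraries and depth. A value as high as that of Klf9 was common: 24.5% of the 9384 genes with a mean of at least 5 RPKM had r of 0.67 or more. A value as low as that of Egr1 was less so, with 3.89% of these genes at or below it. For Klf9 r was 0.92 over the 4 groups without OHT and 0.90 over the 4 with it. For Egr1 r was -0.93 without OHT and -0.77 with it. Without the 2 groups farthest from the median of Klf4, MycER OHT Y27 and YAP2S OHT, r was 0.92 for Klf9 and -0.79 for Egr1, but 0.25 for Klf2 and -0.03 for Egr2. The r of Klf6 changed to 0.78 under quantile normalization.

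**Figure D5:**
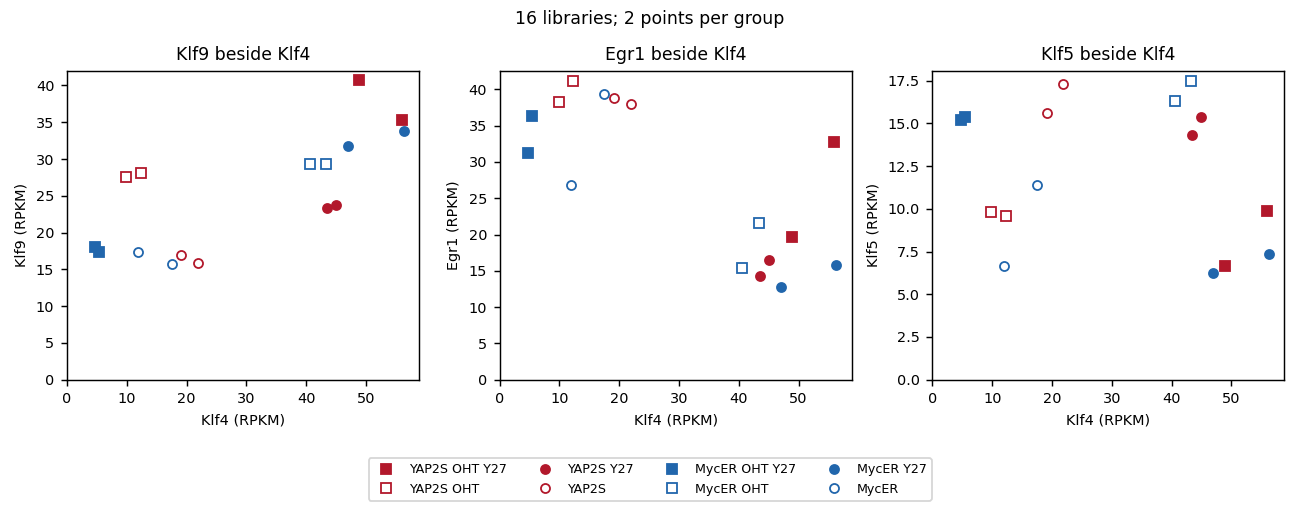
RPKM of Klf9, Egr1 and Klf5 (vertical axes, from 0) against RPKM of Klf4 (horizontal axes, from 0), with 1 point per library, red for YAP2S, blue for MycER, squares for OHT and filled symbols for Y27. Libraries with up to 21.9 RPKM of Klf4 hold Egr1 values of at least 26.8 RPKM, and Klf5 splits into levels that do not follow Klf4.

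The genes most like Klf4 by this measure were Cfp, Stk38l, Cd14, Rhobtb1, Marf1 and Mfsd11, with r from 0.98 to 0.99. Cd14, the co-receptor for bacterial lipopolysaccharide, had 41.9 ± 4.23 RPKM in YAP2S OHT Y27 and 14.6 ± 3.06 RPKM in YAP2S OHT (SD, n = 2 each), and 7.14 ± 1.09 RPKM in MycER OHT Y27 and 31.3 ± 1.16 RPKM in MycER OHT. The least alike were Srsf10, Gspt1 and Srsf6, each with r of -0.98. Srsf6 and Srsf10 encode splicing factors and Gspt1 a translation release factor.

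Of the other Klf genes, which were fixed as a list of 11, 8 passed the filter on low values. The closest to Klf4 was Klf13, with r = 0.98 (22nd of 9384 genes), followed by Klf11 (0.91) and Klf7 (0.74). Without MycER OHT Y27 and YAP2S OHT, r was 0.93 for Klf13 and 0.71 for Klf11, but -0.12 for Klf7. Under quantile normalization r was 0.95, 0.86 and 0.33 for Klf13, Klf11 and Klf7. Klf11, Klf12, Klf13 and Klf15 had the library order of Klf4 in all 4 Y27 pairs, as did 10.6% of all genes tested. In MycER Y27 against MycER, 2 of the 8 passed the threshold (17.9% of all genes), and both rose. These were Klf12, with 16.8 RPKM in MycER Y27 and 4 RPKM in MycER (log2 difference 1.84 ± 0.19, adjusted p = 6.28e-05, limma), and Klf11, with 10.2 RPKM in MycER Y27 and 4.64 RPKM in MycER (1.01 ± 0.22, adjusted p = 0.00807, limma). In YAP2S OHT Y27 against YAP2S OHT (11.4% of all genes) 2 of the 8 rose, Klf12 (1.51 ± 0.19) and Klf13 (0.93 ± 0.23, adjusted p = 0.000353 and 0.0241, limma), and in YAP2S Y27 against YAP2S (0.668%) 1 of 8 did, Klf15 (0.84 ± 0.13, adjusted p = 0.0161, limma). The median of the list was 0.33, 0.39 and 0.19 in these 3 comparisons, against 0.13, -0.02 and 0.00 over all genes. In MycER OHT Y27 against MycER OHT (46.9%) 5 of the 8 fell and none rose, with a median of -0.73 against -0.29. The lowest adjusted p there was that of Klf15, with 0.916 RPKM in MycER OHT Y27 and 4.34 RPKM in MycER OHT (-1.48 ± 0.13, adjusted p = 6.46e-05, limma).

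Averaged over OHT, 6 of these 8 genes passed (32.3% of all genes), 1 higher and 5 lower, with a list median of -0.26, against -0.04 over all genes. Klf11 fell by 0.62 ± 0.11 (adjusted p = 0.00118, limma) and Klf8 by 0.39 ± 0.09 (adjusted p = 0.00535, limma), whereas Klf16 rose by 0.60 ± 0.11 (adjusted p = 0.00122, limma). Klf3, a repressor that recruits CtBP, fell by 0.23 ± 0.07 (adjusted p = 0.0261, limma). Of the Klf genes tested, members and list, Klf9 and Klf16 passed as higher with OHT.

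Of the Sp genes, the closest relatives of the Klf family, 4 of 9 were tested. Averaged over OHT 1 of these 4 passed, beside 32.3% of all genes, namely Sp4, which fell (-0.38 ± 0.10, adjusted p = 0.00979, limma). Nab1 and Nab2, co-repressors that bind Egr proteins, were the 2 of 4 Egr partners and relatives tested. Of these, 1 passed in MycER OHT Y27 against MycER OHT (46.9% of all genes), Nab2, which was lower in MycER OHT Y27 (24.8 RPKM) than in MycER OHT (38.0 RPKM), by -0.60 ± 0.14 (adjusted p = 0.00492, limma).

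Immediate early genes did not move as a block. In MycER Y27 against MycER, 6 of 16 tested members of this list passed, 3 higher and 3 lower (17.9% of all genes), with a list median of -0.05 against 0.13. Fos, a subunit of AP-1, fell to 1.23 RPKM in MycER Y27, against 10.9 RPKM in MycER (-2.42 ± 0.19), and Junb fell to 46.6 RPKM, against 77.6 RPKM (-0.73 ± 0.13, adjusted p = 1.17e-05 and 0.0026, limma). Nr4a2 and Atf3 rose by 0.75 ± 0.16 and 0.70 ± 0.16 (adjusted p = 0.00714 and 0.0124, limma). In YAP2S OHT Y27 against YAP2S OHT 5 of 16 passed (11.4%), 1 higher and 4 lower, with Fos at -2.68 ± 0.19, and in YAP2S Y27 against YAP2S (0.668%) only Fos passed, at -1.87 ± 0.19 (adjusted p = 5.81e-06 and 0.00216, limma). In MycER OHT Y27 against MycER OHT 9 of 16 passed (46.9%), 2 higher and 7 lower, with Fos higher by 0.91 ± 0.19 (adjusted p = 0.0031, limma) and Ier3 lower by -0.97 ± 0.12 (adjusted p = 0.000189, limma). Fos, Junb and Srf had the reverse of the Klf4 library order in all 4 Y27 pairs, as Egr1 did. Jun, Ier3, Nr4a2 and Elk1 had the Klf4 order. Of all genes tested, 3.16% had the reverse order and 10.6% the Klf4 order.

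Srf, the factor behind many immediate early promoters, had 9.77 ± 2.78 RPKM in MycER Y27 and 29.3 ± 8.5 RPKM in MycER (-1.49 ± 0.19, adjusted p = 0.000297, limma). It had 13.8 ± 0.0806 RPKM in YAP2S OHT Y27 and 38.8 ± 1.83 RPKM in YAP2S OHT (-1.42 ± 0.19, adjusted p = 0.000524, limma). Elk1, an ERK-responsive partner of SRF, rose by 0.54 ± 0.11 and 0.57 ± 0.11 in these comparisons (adjusted p = 0.00581 and 0.00596, limma). Srf and Elk1 were the 2 of 6 tested genes of SRF and its co-activators that passed in each (17.9% and 11.4% of all genes). In MycER OHT Y27 against MycER OHT (46.9%) 1 of 6 passed, Elk1, which fell by 0.72 ± 0.11 (adjusted p = 0.000567, limma). In YAP2S Y27 against YAP2S (0.668%) limma called 0 of 6, with 2 at an unadjusted p below 0.05 and 1 called by voom. Of 9 tested genes of the ERK and ERK5 cascade with Mef2, 2 passed in YAP2S OHT Y27 against YAP2S OHT (11.4%), both higher, Mapk3 (0.61 ± 0.15) and Mef2a (0.67 ± 0.20, adjusted p = 0.0232 and 0.0455, limma). In MycER OHT Y27 against MycER OHT (46.9%) 4 of 9 passed, all lower, among them Mapk3 (-1.22 ± 0.15, adjusted p = 0.00021, limma). In MycER Y27 against MycER limma and voom called 0 of 9, with 3 at an unadjusted p below 0.05, and in YAP2S Y27 against YAP2S both called 0 of 9, with 0 at an unadjusted p below 0.05.

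Of 9 tested genes described as Egr1 targets, 3 passed in MycER Y27 against MycER (17.9% of all genes), and all 3 fell. F3, the tissue factor gene, fell to 7.79 RPKM in MycER Y27, against 19.4 RPKM in MycER (-1.21 ± 0.17, adjusted p = 0.00064, limma), Plau by 1.12 ± 0.30 and Pdgfa by 0.41 ± 0.11 (adjusted p = 0.0226 and 0.0191, limma). In YAP2S OHT Y27 against YAP2S OHT (11.4%) 2 of 9 passed, and F3 (-1.48 ± 0.17) and Pdgfb (-0.86 ± 0.17) fell (adjusted p = 0.000228 and 0.00714, limma). The list median was -0.02 and -0.25 in these comparisons, against 0.13 and -0.02 over all genes. In MycER OHT Y27 against MycER OHT (46.9%), where the Egr1 difference was 0.85, 2 of 9 passed and both fell, Plau (-1.31 ± 0.30) and Nab2 (-0.60 ± 0.14, adjusted p = 0.00452 and 0.00492, limma). In YAP2S Y27 against YAP2S, where the Egr1 difference was -1.27, limma called 0 of 9, with 3 at an unadjusted p below 0.05 and 2 called by voom. Only 0.668% of all genes passed there, so the count of 0 does not set this list apart. Its median was -0.21, against 0.00 over all genes.

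Among genes that respond to TGF-beta, the pathway that induces Klf10, those that passed mostly fell with Y27, except in the pair labelled MycER with OHT. In MycER Y27 against MycER 5 of 8 passed (17.9% of all genes), all lower, with a list median of -0.53 against 0.13 over all genes. Ltbp2, a matrix protein of the latent TGF-beta binding protein family, fell to 34.0 RPKM in MycER Y27, against 54.5 RPKM in MycER (-0.67 ± 0.09, adjusted p = 0.000597, limma). The count was 6 of 8 in YAP2S OHT Y27 against YAP2S OHT (11.4%), 1 higher and 5 lower, in YAP2S Y27 against YAP2S 1 of 8, lower (0.668%), and in MycER OHT Y27 against MycER OHT 4 of 8 (46.9%), 2 higher and 2 lower. Klf10 itself had 22.9 and 24.0 RPKM in MycER Y27 and 19.2 and 23.6 RPKM in MycER. Of the 5 tested glucocorticoid-responsive genes, the class to which Klf9 belongs, 1 passed in MycER Y27 against MycER (17.9%), Tsc22d3, at 0.40 ± 0.12 (adjusted p = 0.0341, limma), and 3 passed in MycER OHT Y27 against MycER OHT (46.9%), 1 higher and 2 lower. Averaged over OHT 1 of these 5 passed, beside 32.3% of all genes, namely Fkbp5, which rose by 0.56 ± 0.13 (adjusted p = 0.00507, limma).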

How the data were processed

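The authors deposited 1 table of RPKM values per gene for 16 libraries. Per the labels' processing notes, TopHat2 (2.0.8), featureCounts (1.4.5-p1) and SAMtools were used with mm9. The unit was inferred: the low values were whole multiples of 1 read, and whole reads were recovered for 100% of genes (tolerance 0.01 reads), which gave depths of 1763224 to 15707305 reads. The number of per-sample columns left unused was 0. Genes with at least 1 RPKM in 2 libraries were kept, and log2(RPKM + 1) was fitted in limma 3.58.1 (R 4.3.3) with 8 group means, 8 residual degrees of freedom and Benjamini-Hochberg adjustment over all genes tested (threshold 0.05). A count test planned for a count table was not the main test, as the values are RPKM; voom on recovered reads was an alternative. Others were the pseudocount (0.1), the filter, quantile and cyclic loess scaling, a replicate block and leaving out libraries. The fit was tested on simulated data. The members and all gene lists were chosen with earlier results of these data known. Named genes are the 9 members, the 6 genes most and 3 least like Klf4 among those with a mean of at least 5 RPKM, Srf, Fos, Ctgf and Bex1 as points of reference, and from each list at most 4 genes, those lowest in adjusted p. Promoter windows came from RefSeq (GRCm38.p6) and were not combined with mm9 coordinates. Python 3.11.15 drew the figures. The values of 1 gene of the lists are not reported here.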

Additional observations from a re-analysis of the deposited data

Results flagged for a closer look

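For several members every library moved one way in one pair of groups and the opposite way in the matched pair. The differences between the 2 log2 differences are given here and were not tested. All but 1 of them involve libraries labelled OHT, whose population markers go against their labels, and the part of that in these values was not tested.

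Between the OHT difference of MycER cells and that of YAP2S cells, Klf4 differed by 2.31 (1.47 in MycER and -0.83 in YAP2S), Klf5 by 1.58 (0.88 and -0.70), Klf6 by -0.81 (-0.65 and 0.16) and Egr3 by -1.10 (-0.89 and 0.21). Under Y27 the same comparison gave -3.36 for Klf4 (-3.12 in MycER and 0.24 in YAP2S), 1.87 for Klf5 (1.06 and -0.80) and -1.52 for Klf9 (-0.85 and 0.67). The Y27 difference in MycER OHT less that in YAP2S OHT cells was -4.98 for Klf4, -1.12 for Klf9 and 1.48 for Egr1.

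Between the OHT difference of MycER cells without Y27 and that with it, Klf4 differed by 4.59 (1.47 without and -3.12 with Y27), Klf9 by 1.64 (0.79 and -0.85), Egr1 by -1.99 (-0.80 and 1.19) and Egr2 by 1.11 (0.21 and -0.90). In YAP2S cells the same gave -1.07 for Klf4 (-0.83 and 0.24).

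Between the YAP2S and MycER populations, the Klf4 difference without Y27 less that with it was 0.68 (0.47 and -0.21) in cells without OHT. For Klf6 this was 0.44 (0.23 and -0.21) in cells with OHT. For Egr3 the population difference under Y27 without OHT less that with OHT was -1.02 (-0.46 and 0.57).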

How the results depend on the processing

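Of 867 alternative values, 720 stayed the same, 86 lost the call, 54 moved and 7 reversed. In tested comparisons, the same meant the same sign and side of the threshold. Only results that passed in the main fit were followed there, so a call gained could not appear. For the Y27 differences, which were not tested, it meant a shift smaller than the SE. The 54 that moved were Y27 differences. The cause was not tested. Klf6 reversed under quantile normalization and cyclic loess in MycER OHT against MycER (0.06 and 0.02), YAP2S against MycER (0.09 and 0.05) and MycER OHT Y27 against MycER OHT (-0.22 and -0.24), and Klf10 reversed under quantile normalization in the last (0.03).

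Counts of members called moved as follows. Those in the 4 comparisons with and without Y27 are left out, as that contrast chose the members and was not tested for them. With only the libraries of the comparison the counts were 2 in MycER OHT against MycER and 0 in YAP2S OHT Y27 against YAP2S Y27. They were 0 in YAP2S against MycER and 3 in YAP2S OHT Y27 against MycER OHT Y27. Under cyclic loess they were 0 in YAP2S against MycER, 5 in MycER Y27 against MycER and 4 in MycER OHT Y27 against MycER OHT, and under quantile normalization 5 in MycER Y27 against MycER. Without the 8 OHT libraries they were 1 in YAP2S against MycER and 0 in YAP2S Y27 against YAP2S. With voom on duplicate-corrected reads, chosen after the data were seen, the count was 1 in YAP2S against MycER. With voom on recovered reads the count was 4 in YAP2S Y27 against MycER Y27.

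Replicate numbers did not pair the libraries (28 pairs, r from -0.327 to 0.432, median -0.0154). With the replicate block the calls of Klf5 in YAP2S OHT against YAP2S (adjusted p = 0.0581, limma) and against MycER OHT (adjusted p = 0.0545, limma) ended. The call of Klf4 in YAP2S against MycER also ended there (adjusted p = 0.0554, limma).

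Leaving out 1 library left its group with 1 library, so counts of members called are not given for those fits. Depth limits Egr3 most, with 4 to 79 reads a library.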
